A study of Mus musculus with 12 samples.

Results

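Ly6 surface proteins are small antigens of blood cells, and 8 of their genes were followed here across cultures of mouse CD8 T cells: Ly6d, Ly6k, Ly6e, Ly6i, Ly6a, Ly6c1, Ly6c2 and Ly6g. They were taken by gene symbol from a table of 39462 genes, and each symbol had its own transcript cluster on the array. The family was chosen by a measured value, the difference of Ly6c2 between the priming peptides in these same arrays, which was among the largest. The Y3 minus N4 differences of the members are therefore a description, carry no test and support nothing. The effects of corticosteroid were not used in the choice and were tested.

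Ly6 proteins fold into a compact domain held by disulfide bonds, shared with the urokinase receptor, and most are tied to the outer membrane by a glycosylphosphatidylinositol (GPI) lipid anchor in place of a membrane-spanning segment. On mouse T cells the Ly6A and Ly6C antigens are known as markers that rise with activation, memory and interferon. Other members mark neutrophils (Ly6G) or early B lineage cells (Ly6D).

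OT-I cells carry a transgenic T cell receptor for an ovalbumin peptide on a class I molecule, and the cultures, labelled as splenocytes, were stimulated with N4, the strong agonist peptide, or Y3, an altered peptide with weaker receptor binding. Each was done without or with corticosteroid, whose name and dose the sources used here did not give, and RNA was taken at day 4. The 4 groups had 3 biological replicates each, so 12 arrays in all, with no mention of separate mice or cultures, and the p-values thus measure the spread between arrays, which may be partly technical. All groups share the OT-I transgene and the culture. Levels are log2 signals of the authors' array summary, and the background line of an array is its brightest background control, at 5.41 to 6.40 (log2), close to the medians of the negative controls (5.58 to 6.09). The number of arrays limits the precision.

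The cells carried the markers of their label. The 10 markers listed for CD8 T cells hold Cd8a and Cd8b1 and also general T cell genes such as Cd3e. All 10 lay above the background line on all 12 arrays. Of the 10 neutrophil markers, 10 lay below it on every array, as did 8 of 10 B cell markers, 7 of 10 monocyte and macrophage markers and 7 of 10 dendritic cell markers. Of 5 CD4 T cell markers 1 lay below it on every array, of 5 plasma cell markers 2 and of 8 natural killer cell markers 3. Cd4 was above the line on 1 array and Foxp3 on 0. Tsc22d3, a classic glucocorticoid target, had a log2 signal of 7.94 ± 0.64 (SD, n = 3) under N4, which was 9.004 ± 1.27 with corticosteroid. Under Y3 it was 8.23 ± 0.41, against 9.83 ± 0.63 with corticosteroid. Of the 10 glucocorticoid response genes, 7 were higher with corticosteroid under N4 and 9 under Y3, with 0 past the threshold in either, by limma at an adjusted p of 0.05. Under N4, Dusp1 and Ddit4 differed by -0.49 and -0.435 (log2), and under Y3 Dusp1 by -0.12. Nr3c1, counted as higher under Y3, was at 10.02 in both Y3 groups. Nothing more is read from these counts.

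The members sit together on mouse chromosome 15, in the order Ly6d, Ly6k, Ly6e, Ly6i, Ly6a, Ly6c1, Ly6c2 and Ly6g, with 24 RefSeq genes from the first to the last, of which 15 are protein coding. Promoter windows of RefSeq (build GRCm38.p6, 250 bases before to 50 after the start) were at hand for 3 members, Ly6c1, Ly6c2 and Ly6g, in 6 windows. One window each is shown for Ly6c1 and Ly6c2, close relatives picked for ligand differences of unlike size. Whether the letters bear on that was not tested. The Ly6c1 window is chr15:75048788-75049087 and the Ly6c2 window chr15:75111922-75112221, both on the minus strand. Capitals mark the TATAAA and CCAAT matches of Ly6c1, and in Ly6c2 the bases that a global alignment set opposite them.
Ly6c1: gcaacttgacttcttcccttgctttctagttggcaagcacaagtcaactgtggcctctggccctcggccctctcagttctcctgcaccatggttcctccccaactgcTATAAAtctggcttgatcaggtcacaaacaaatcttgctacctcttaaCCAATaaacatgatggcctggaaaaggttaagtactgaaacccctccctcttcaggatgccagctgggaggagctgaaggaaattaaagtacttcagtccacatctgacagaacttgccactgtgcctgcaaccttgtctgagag
Ly6c2: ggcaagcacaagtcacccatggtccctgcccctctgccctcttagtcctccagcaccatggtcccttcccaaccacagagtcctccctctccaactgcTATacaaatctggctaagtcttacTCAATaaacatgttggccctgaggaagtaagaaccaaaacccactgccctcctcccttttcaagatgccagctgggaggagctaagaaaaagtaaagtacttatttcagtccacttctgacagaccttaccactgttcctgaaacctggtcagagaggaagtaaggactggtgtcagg
The windows aligned over 244 bases, of which 206 (84.4%) were identical, with a gap penalty that was loosened after a first alignment had been seen. With a stricter penalty 208 of 266 aligned bases (78.2%) were identical. TATAAA and CCAAT, searched on both strands, were found in 3 of the 6 windows, namely 1 window of Ly6c1 and both of Ly6g, and neither in a window of Ly6c2. In the Ly6c1 window shown, TATAAA lay at -143 to -138 and CCAAT at -95 to -91 from the start. The windows of each gene overlap, and both of Ly6g hold the same TATAAA and CCAAT bases. The 6 are therefore not separate promoters, and their counts are not weighed against the shares of all windows given next. Of 32851 promoter windows of the same length, 13.62% held TATAAA and 37.41% CCAAT. The STAT-type motif TTCNNNGAA, in 8.3% of all windows, and the glucocorticoid receptor core AGAACA, in 18.97%, were found in 0 of the 6. A match describes letters, not a used site.

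Ly6c2 and Ly6c1 encode the Ly6C antigen, a marker of memory and effector CD8 T cells and of inflammatory monocytes. Ly6c2 (cluster TC1500001730.mm.1) read 10.33, 11.38 and 9.72 (log2 signal, replicates 1 to 3) under N4 and 13.89, 15.12 and 14.84 under Y3. With corticosteroid it read 10.20, 10.90 and 9.65 under N4 and 13.90, 14.53 and 14.88 under Y3. Every Y3 array was above every N4 array, and the closest arrays of the 2 peptides stood 2.51 apart without corticosteroid and 3.00 with it. On the linear scale the N4 arrays without corticosteroid held 846 to 2658 units and the Y3 arrays 15173 to 35669. The mean difference was 17.6-fold without corticosteroid and 18.2-fold with it. Within replicate numbers 1, 2 and 3 it was 3.56, 3.75 and 5.12 (log2) without and 3.70, 3.63 and 5.23 with corticosteroid, so the pair of replicate 3 was the widest both times. In order of group means, Y3 (14.62 ± 0.65, SD, n = 3) and Y3 plus corticosteroid (14.44 ± 0.49) differed by less than their spread, as did N4 (10.48 ± 0.84) and N4 plus corticosteroid (10.25 ± 0.63). Ranked by the signed Y3 minus N4 difference, from most higher to most lower in Y3, Ly6c2 stood at place 4 among the 39462 genes without corticosteroid. With it, the place was 3. Genes lower in Y3 stand behind it in this order, whatever the size of their difference.

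Ly6c1 (cluster TC1500001729.mm.1), the neighbouring gene, followed with smaller differences. It read 8.79, 9.27 and 8.04 under N4 and 9.50, 10.60 and 10.58 under Y3. With corticosteroid the readings were 8.71, 9.63 and 8.64 under N4 and 9.75, 10.92 and 10.59 under Y3. The peptides did not overlap in either arm, but the gap between the nearest arrays was only 0.23 and 0.12 (log2). The mean Y3 minus N4 difference was 2.88-fold without and 2.7-fold with corticosteroid, against the 17.6-fold and 18.2-fold of Ly6c2. Of the 8 members, Ly6c1 and Ly6c2 had Y3 arrays wholly above the N4 arrays, and of all genes 5.24% did so without and 7.91% with corticosteroid. Because the rule used the ligand difference, nothing is read from that count. The transcripts of Ly6c1 and Ly6c2 are close copies, and the cross-hybridisation field of the table reads FALSE for both clusters, as for every other cluster with an entry, so how far one gene's RNA lit the other's probes is uncertain.

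**Figure D1:**
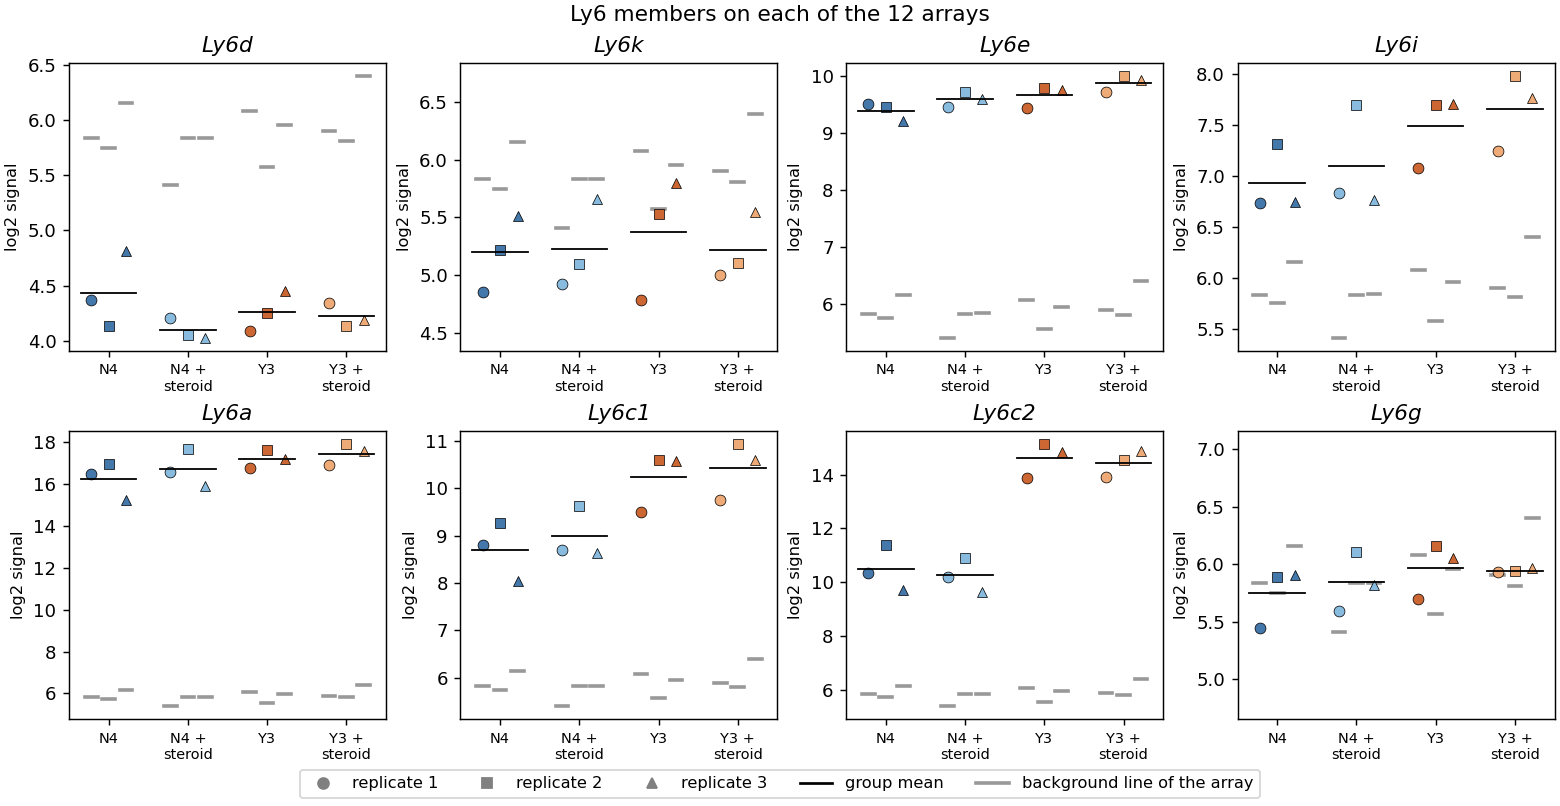
Log2 signal of each Ly6 member on the 12 arrays, by group on the x axis. Symbols are replicates 1 to 3, black bars group means and grey ticks the background line of each array. For Ly6c2 the Y3 arrays lie from 13.89 to 15.12 and the N4 arrays from 9.65 to 11.38, while Ly6d and Ly6k lie below the line on every array.

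In bulk RNA, more cells carrying a transcript and more of it per cell cannot be told apart, and the cell makeup gives the following values. The 10 monocyte and macrophage markers summed to 243 to 255 linear units under N4 and 275 to 306 under Y3, with corticosteroid to 248 to 262 and 270 to 287, and Csf1r, the receptor of a macrophage growth factor, was below the line on all 12 arrays. Ccr2 and Itgam, which monocytes share with T cells, were above it on 2 and 3 arrays, and Cd14 on 1. Without corticosteroid the Y3 minus N4 difference was 0.725 ± 0.353 (log2, SE) for Ccr2, 0.836 ± 0.37 for Itgam and -0.012 for Cd14. With it the values were 0.557, 0.528 and -0.101. Of the 10 markers, 5 were higher and 5 lower in Y3 in each arm. By limma 0 passed, or 1 with the replicate number as a block, Itgam without corticosteroid (adjusted p = 0.0317, 0.569 without the block). Which cells held these transcripts was not tested. The 10 markers listed for CD8 T cells summed to 330344 to 383897 units under N4 and 385163 to 618915 under Y3, and with corticosteroid to 304113 to 385350 and 424653 to 574906. The 10 dendritic cell markers summed to 6647 to 9273 units under N4 and 9569 to 11376 under Y3, and with corticosteroid to 6532 to 8717 and 8224 to 9927. The brightest of the 3 that lay above the line on every array was Bst2, at 12.63 under N4 and 13.25 under Y3 (log2). It also belongs to the interferon-stimulated genes described below. The other 2, Batf3 and Irf8, went the other way, with Y3 minus N4 differences of -2.11 and -0.69 without corticosteroid. The 5 plasma cell markers summed to 5075 to 7927 units under N4 and 3277 to 4531 under Y3, and with corticosteroid to 4845 to 9433 and 3166 to 4458. Xbp1, the brightest of them, was at 12.60 under N4 and 11.77 under Y3 (log2), and Sdc1 was lower as well. Prdm1, Jchain and Tnfrsf17 were slightly higher in Y3 without corticosteroid, and Jchain and Tnfrsf17 lay below the line on every array. The 8 natural killer cell markers summed to 9449 to 40890 units under N4 and 10262 to 15180 under Y3. With corticosteroid they summed to 9030 to 163372 and 20742 to 116177. Y3 minus N4 differences were 2.40 (log2) in each arm for Eomes, and -1.87 and -2.18 for Prf1. Ncr1, Klra8 and Klra4 lay below the line on every array. The part of these marker shifts in the Ly6 differences was not tested.

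Ly6a encodes Sca-1, an antigen of blood stem cells that activated lymphocytes also carry. It was the brightest member, and its mean exceeded that of 98.7% of genes. It read 16.48, 16.96 and 15.25 under N4 and 16.75, 17.62 and 17.21 under Y3. With corticosteroid it read 16.57, 17.69 and 15.90 under N4 and 16.89, 17.90 and 17.56 under Y3. The peptides overlapped in both arms, with Y3 higher in 3 of 3 pairs each time, and replicate 3 of N4 was the lowest array in either arm. The Y3 minus N4 difference was 0.96 (log2) and came to 0.47 without N4 replicate 3 and 0.45 with array weights. With corticosteroid it was 0.73, and 0.32 without replicate 3 of that N4 group and 0.21 with array weights.

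Ly6i, a member close in sequence to the Ly6A and Ly6C genes, and Ly6e, an antigen of thymocytes that interferon induces, were above the line on all 12 arrays. On the linear scale Ly6i spanned 106 to 252 units and Ly6a 38978 to 244130. How far the RNA of its brighter relatives lit the probes of Ly6i is therefore uncertain. Ly6i read 6.73, 7.31 and 6.74 under N4 and 7.08, 7.69 and 7.70 under Y3. With corticosteroid it read 6.83, 7.69 and 6.76 under N4 and 7.24, 7.98 and 7.76 under Y3. Its Y3 minus N4 difference was 0.57 (log2) in both arms, with 3 of 3 pairs higher and overlapping groups, and 0.32 and 0.26 with array weights. Ly6e moved least among the bright members, from 9.21 to 9.52 under N4 and from 9.45 to 9.80 under Y3. With corticosteroid it spanned 9.46 to 9.72 and 9.72 to 10.00. The Y3 minus N4 difference of Ly6e was 0.27 without and 0.29 with corticosteroid.

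Ly6g, the neutrophil antigen, lay close to the background line, above it on 7 of 12 arrays, from 5.45 to 6.15. Ly6d, an early B lineage antigen, ran from 4.03 to 4.81 and Ly6k, known from male germ cells, from 4.79 to 5.80. Both lay below the line on every array, so no fold is given for them. Neutrophil and most B cell markers were below the line as well, as given above. Counted over the 8 members, 7 were higher in Y3 without corticosteroid and 7 with it, with medians of 0.42 and 0.43, against 49.3% and 48% of all genes and medians of -0.003 and -0.007. The rule used this difference, and the count holds Ly6c2 itself and the undetected Ly6d and Ly6k. Nothing is read from it.

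**Figure D2:**
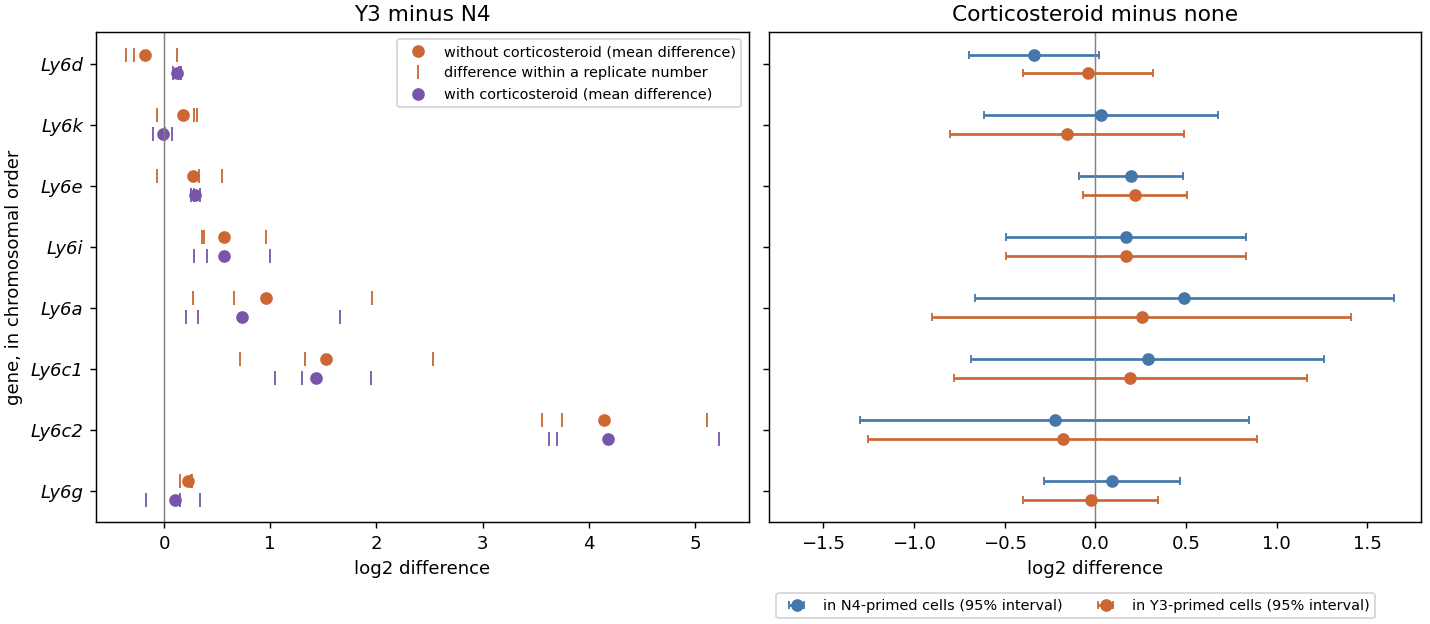
Log2 differences of the members in chromosomal order. On the left, circles are Y3 minus N4 differences of group means and ticks those within a replicate number. On the right, corticosteroid effects carry 95% intervals of the limma fit, all of which span 0, whereas Ly6c2 stands at 4.14 and 4.18 on the left.

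Corticosteroid was tested next. None of the 8 members passed in N4-primed cells, in Y3-primed cells or for the interaction, the difference between the 2 corticosteroid effects (limma, adjusted p = 1.00 for each member in each, 0 of 8). The share of all genes called was 0.0% in each of the 3 comparisons, and 749, 1259 and 674 genes had an unadjusted p under 0.05, none of them a member. With the replicate number as a block, 0 members passed as well, and the shares of all genes were 0.00253%, 0.0% and 0.0%. In that fit 1312, 2649 and 1102 genes had an unadjusted p under 0.05, among them Ly6d under N4. The corticosteroid arrays lay wholly above the others for 0 of the 8 members under N4 and 0 under Y3, where 2.77% and 4.27% of all genes did so.

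Ly6c2 differed with corticosteroid by -0.22 ± 0.48 (log2, SE, n = 3 per group) under N4 and by -0.18 ± 0.48 under Y3. The 95% intervals of the fold ran from 0.407 to 1.8 and from 0.42 to 1.86, so changes within those bounds could not be told from none with these arrays. Its 6 pairs ran from -0.59 to 0.04, with 2 of 6 higher. The interaction was 0.04 ± 0.68, with an interval from -1.47 to 1.56. The ligand difference of Ly6c2 was 4.14 without and 4.18 with corticosteroid.

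Ly6a differed by 0.49 ± 0.52 under N4 and 0.26 ± 0.52 under Y3, and Ly6i by 0.17 ± 0.30 under each. Both were higher with corticosteroid in 6 of 6 pairs, which 3.32% of all genes were, and 0 of 8 members were lower in 6 of 6, which 4.45% were. The pairs ran from 0.10 to 0.72 for Ly6a and from 0.02 to 0.38 for Ly6i. Without N4 replicate 3 the N4 effect of Ly6a came to 0.0019. Ly6c1 differed by 0.29 ± 0.44 and 0.19 ± 0.44 and Ly6e by 0.20 ± 0.13 and 0.22 ± 0.13, each higher in 5 of 6 pairs. Averaged over both peptides, a contrast chosen after the data were seen, Ly6e differed by 0.21 ± 0.09 (limma, unadjusted p = 0.0449, adjusted p = 1.00, 0 of 8 members called, 0.0% of all genes). Its interval was 0.01 to 0.41, and with the block 0 members passed, with 0.0127% of all genes. Ly6g differed by 0.09 ± 0.17 and -0.03 ± 0.17. Ly6g, Ly6d and Ly6k were higher in 3, 1 and 3 of their 6 pairs.

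The 5 brightest members varied together from array to array within a group. Taken as deviations from the group mean over the 12 arrays, Ly6c1 followed Ly6c2 (r = 0.914), Ly6i (0.929), Ly6a (0.912) and Ly6e (0.917), and the lowest value among the 10 pairs of these members was 0.756, for Ly6e with Ly6c2. Ly6g followed less closely, at 0.313 to 0.690. These points share arrays, and same-numbered arrays deviated together across the whole table, so they are descriptions without a p. The part of cross-hybridisation between close relatives in these values was not tested. Replicate 2 held the highest Ly6a and the highest Ly6c1 value in all 4 groups. Replicate 3 held the lowest Ly6a, Ly6c1 and Ly6c2 values in both N4 groups, at 0.60 to 0.75 (log2) under the group mean for Ly6c2, whereas in both Y3 groups replicate 1 was lowest, at 0.53 to 0.73 under it. Within the 6 arrays of a peptide, Ly6c1 and Ly6c2 correlated at 0.836 under N4 and 0.832 under Y3.

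**Figure D3:**
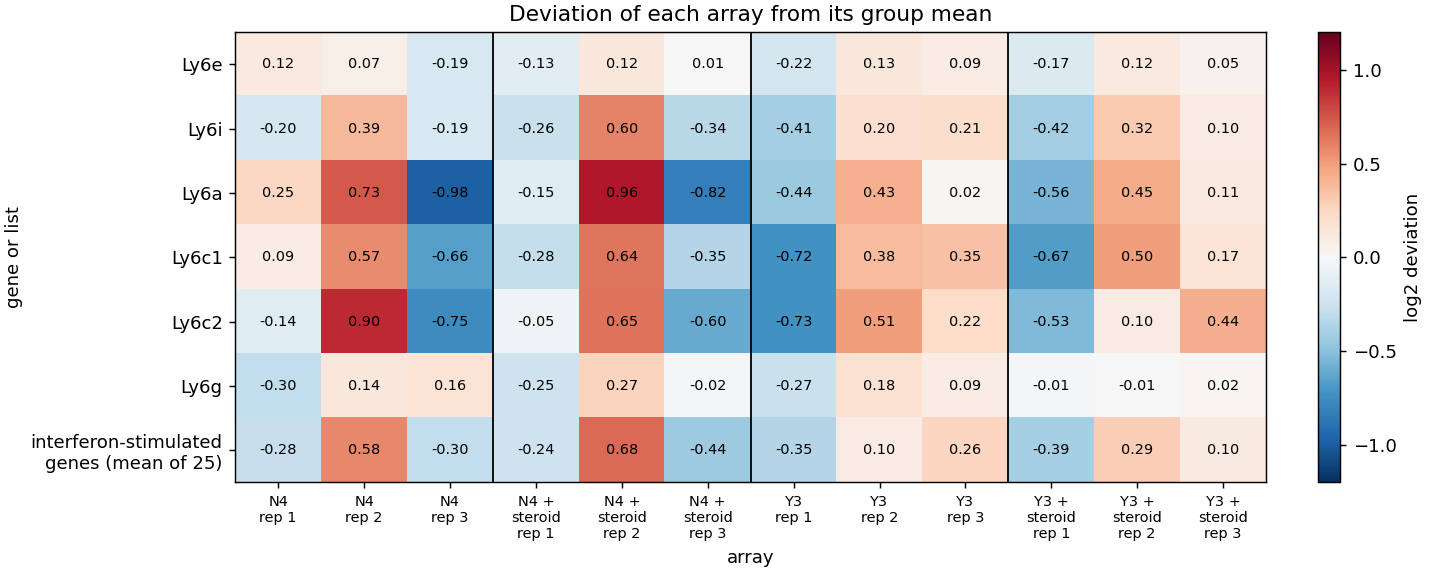
Deviation of each array from its group mean (log2, colour and printed value) for 6 Ly6 members and for the mean of 25 interferon-stimulated genes. Replicate 2 is above its group mean in nearly every row, replicate 3 is low in the N4 groups for Ly6a, Ly6c1 and Ly6c2, and replicate 1 is low in the Y3 groups.

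Interferon-stimulated genes, none of them a Ly6 gene, varied with the members. Deviations of the mean of the 25 that rose above the line on some array tracked those of Ly6i (r = 0.977), Ly6c1 (0.896), Ly6c2 (0.889), Ly6a (0.867) and Ly6e (0.674) over the 12 arrays. Of 28 listed genes, 28 were higher in Y3 in each arm, with medians of 1.13 and 0.98. By limma 2 passed in each arm, where 0.0304% and 0.256% of all genes did, and with the block 17 and 15, where 2.94% and 6.53% did. The 2 were Ifit3 and Oas2. Ifit3 was above the background line on 7 of 12 arrays, 6 of them Y3 arrays, and Oas2 on 0, so no fold is given for either. Without the block, no gene at all passed in the arm without corticosteroid when N4 replicate 3, Y3 replicate 2, Y3 replicate 3 or replicate 3 of Y3 with corticosteroid was left out, nor in the other arm without replicate 3 of N4 with corticosteroid, Y3 replicate 2 or replicate 2 of Y3 with corticosteroid (0 of 39462). Irf7, an amplifier of the interferon response, was higher by 2.22 ± 0.51 (log2, SE, adjusted p = 0.0116 with the block and 0.222 without it), Zbp1, a nucleic acid sensor, by 2.13 ± 0.62 (0.00291 and 0.336) and Parp14 by 1.73 ± 0.43 (0.032 and 0.269), limma p-values all. The median corticosteroid difference of the list was 0.12 under N4, with 26 of 28 higher, and 0.04 under Y3, with 17 higher, and 0 passed in either fit.

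Of 16 interferon receptors and signalling genes, some of them shared with that list, 12 were higher in Y3 in each arm, with medians of 0.51 and 0.70. Without the block 0 passed, and 5 and 6 were called higher with it, where 2.94% and 6.53% of all genes were called. Ifng, the cytokine itself, stood at 7.998 ± 1.73 under Y3 and 11.08 ± 3.52 under N4 (SD, n = 3) and did not pass. Usp18, a brake on interferon receptor signalling, differed by 1.51 ± 0.74 (limma adjusted p = 0.0928 with the block, 0.632 without). Irf1, which interferon gamma induces, differed by 1.30 ± 0.83 (limma adjusted p = 0.0126 with the block, 0.764 without). With corticosteroid, 10 of 16 were higher under each peptide and 0 passed.

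Among 32 other genes of the Ly6 and urokinase receptor domain on the array, out of 38 listed, 26 lay below the line on every array. In Y3 19 of the 32 were higher in each arm, with medians of 0.03, and 0 passed, or 1 with the block in each arm, Ly6g5b. The block called 2.94% and 6.53% of all genes in these arms. Ly6g5b, from a separate Ly6 group in the histocompatibility complex, was at 6.44 ± 0.19 in Y3-primed and 5.52 ± 0.52 in N4-primed cells, a difference of 0.92 ± 0.37 (limma adjusted p = 0.027 with the block, 0.52 without). The RefSeq gene Ly6a2, named I830127L07Rik on the array, lies between Ly6c2 and Ly6g and read 6.34, 6.75 and 5.66 under N4 and 9.74, 7.85 and 6.98 under Y3. Its Y3 arrays all exceeded the N4 arrays, and its difference was 1.94 ± 0.74 (limma adjusted p = 0.0711 with the block, 0.494 without), or 1.16 without Y3 replicate 1. With corticosteroid it read 6.04, 6.39 and 5.50 under N4 and 8.84, 6.99 and 6.33 under Y3. There the peptides overlapped, and the difference was 1.41 ± 0.74 (limma adjusted p = 0.139 with the block, 0.544 without), or 0.68 without replicate 1 of Y3 with corticosteroid. Replicate 1 was its highest Y3 array, where Ly6a, Ly6c1 and Ly6c2 had their lowest. Lypd6b, a relative that acts on acetylcholine receptors, was at 6.74 ± 0.85 under Y3 and 6.05 ± 0.57 under N4 and passed in neither fit (limma adjusted p = 0.0641 with the block, 0.792 without).

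With corticosteroid 15 of these 32 genes were higher under N4 and 16 under Y3, with medians of -0.003 and -0.004 and 0 past the threshold in either fit. Plaur, the urokinase receptor that names the domain, read 6.66, 5.99 and 6.46 under N4 and 7.76, 8.21 and 9.43 with corticosteroid. Under Y3 it read 5.65, 6.32 and 6.18, and 6.998, 9.65 and 9.30 with corticosteroid. The corticosteroid arrays lay above the others under each peptide, by 2.10 ± 0.64 and 2.60 ± 0.64 (log2, SE, n = 3 per group), and neither passed (limma, adjusted p = 1.00 and 1.00, or 1.00 and 0.277 with the block).

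GPI anchor genes, which make the lipid anchor of Ly6 proteins and attach it, stood close to even. Of 27 on the array, out of 29 listed, 13 were higher in Y3 without and 14 with corticosteroid, with medians of -0.04 and 0.01. Without the block 0 passed, and with it 1 was higher in the first arm and 2 higher and 1 lower in the second. The shares of all genes called with the block were 2.94% and 6.53%. Mppe1, which trims the anchor after attachment, differed by 0.66 ± 0.31 and 0.86 ± 0.31 (limma adjusted p = 0.0463 and 0.00998 with the block, 0.611 and 0.304 without). Pigt, a subunit of the transamidase that attaches the anchor, differed by 0.50 ± 0.59 and 0.47 ± 0.59, and Pigm, a mannosyltransferase of anchor synthesis, by 0.49 ± 0.25 and 0.40 ± 0.25, with neither past the threshold. The other calls of the second arm were Pgap3, higher, and Pign, lower. With corticosteroid 10 were higher under N4 and 8 under Y3, with 0 past the threshold in either fit.

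Of 20 other surface genes of memory and effector CD8 T cells, 13 were higher in Y3 without and 16 with corticosteroid, with medians of 0.33 and 0.50. Of these 0 passed. Il18r1, the interleukin 18 receptor chain, had the widest difference, 1.48 ± 0.54 and 1.54 ± 0.54 (limma adjusted p = 0.119 and 0.0752 with the block). With the block 2 were higher and 2 lower in the first arm and 4 higher and 1 lower in the second. Of all genes, 2.94% and 6.53% were called in that fit. Cd27, a costimulatory receptor, was at 15.64 ± 0.54 in Y3-primed and 14.33 ± 0.48 in N4-primed cells (limma adjusted p = 0.0054 with the block, 0.335 without). Cxcr3, a chemokine receptor, was at 8.44 ± 0.58 and 7.20 ± 0.26 (0.0127 and 0.37, limma). The lower calls of the first arm were Cd69 and Il2ra, the high-affinity interleukin 2 receptor chain, which was at 15.24 ± 0.48 in Y3 against 16.27 ± 0.45 in N4 (0.00747 and 0.427, limma). With corticosteroid 13 were higher under N4 and 15 under Y3, and 0 passed in either fit.

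The 6 genes with the pattern most like Ly6c2, by Pearson's r over the 12 arrays among 10102 eligible genes, were Shisa5 (0.978), Lax1 (0.970), Pyhin1 (0.965), Hcst (0.965), Hrh2 (0.961) and Pydc4 (0.961). The median r of the eligible genes was -0.06, and Ly6c1, at 0.917, was exceeded by 68 of them. The arrays fall into 2 clusters by peptide, so these values mostly restate the ligand difference. As deviations from the group means, r with Ly6c2 was 0.871 for Hcst, 0.791 for Pydc4, 0.776 for Shisa5, 0.770 for Pyhin1, 0.721 for Lax1 and 0.675 for Hrh2. Over the eligible genes its median was 0.06, with quartiles of -0.195 and 0.344, and 5.92% exceeded the value of Hrh2. Lax1, an adaptor of lymphocyte receptors, was at 7.57 ± 0.39 in N4-primed and 9.68 ± 0.56 in Y3-primed cells (SD, n = 3). Hcst, the DAP10 adaptor of NKG2D, was at 6.94 ± 0.25 and 8.14 ± 0.39. Among the 3 most unlike were Spidr (-0.964) and Spag7 (-0.958). Spidr, a scaffold protein of DNA repair, was at 9.97 ± 0.21 in N4-primed and 8.48 ± 0.51 in Y3-primed cells.

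**Figure D4:**
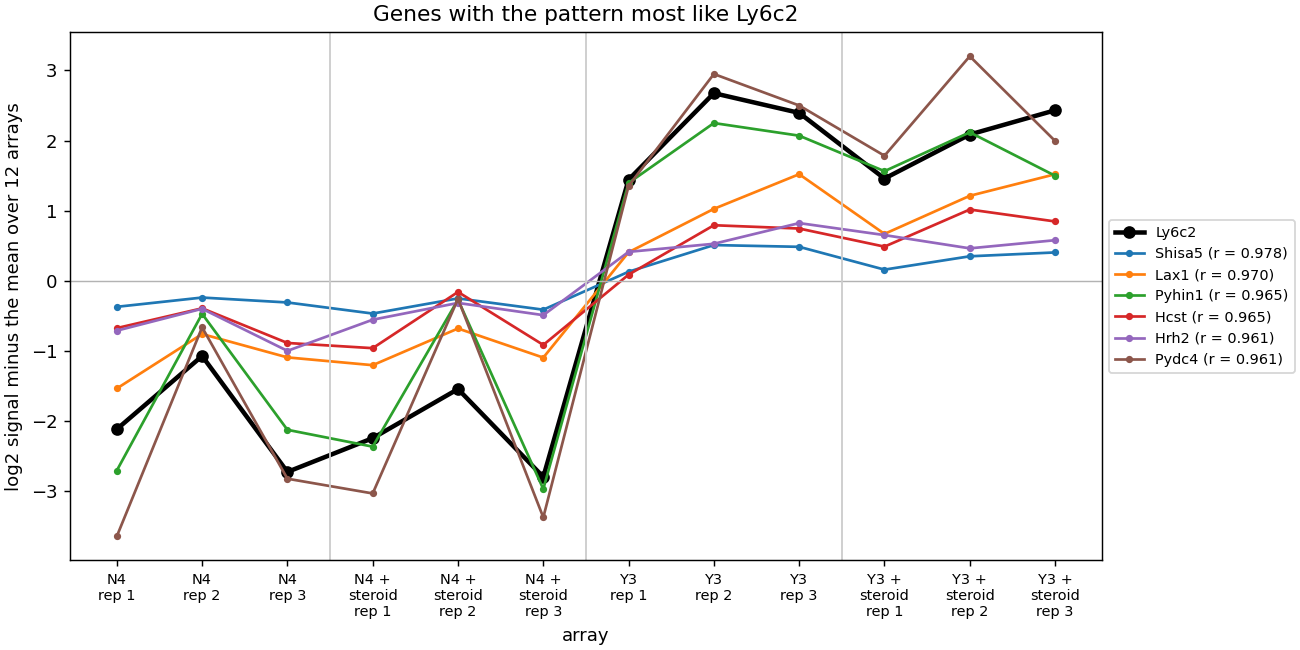
Log2 signal minus the gene's mean over the 12 arrays, for Ly6c2 (black) and the 6 genes most like it (coloured), across the arrays in group order. All 7 lines lie below 0 on the N4 arrays and above 0 on the Y3 arrays, with the widest steps for Pydc4, Ly6c2 and Pyhin1.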

How the data were processed

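RNA of 12 samples was made into biotinylated DNA (labels' protocols) and read on 1-colour Affymetrix MTA arrays. The authors deposited linear intensities of 3.27 to 994483. The column names carry SST-RMA, and RMA stands in the submitters' processing notes. Clusters carry no coordinates, because the sources used here give no build. The series' value table held the same values in all 872256 cells, which ties each column to its sample. Of 65956 transcript clusters 40123 had a symbol, and 39462 genes remained after taking, for each of 462 symbols with several clusters, the one with the highest mean.

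The deposited intensities were turned into log2 values, without pseudocount or rescaling, and tested with limma 3.58.1 in R 4.3.3 (1 mean per group, 8 residual degrees of freedom, eBayes, two-sided, Benjamini-Hochberg over all genes, threshold 0.05), after the script was tested on simulated data. Errors of differences are limma standard errors and those of group means standard deviations. Deviations of same-numbered arrays correlated at 0.114 to 0.815 in 18 of 18 pairs (median 0.532), so the replicate number was also fitted as a block. Differently numbered arrays, which lean negative where same-numbered ones deviate alike, correlated at -0.704 to 0.481 in 36 pairs (median -0.206). Y3 replicate 2 correlated at 0.423 with N4 replicate 3 and at only 0.114 with N4 replicate 2. Pairing across the peptides is thus less sure, and the p-values with the block depend on it. The pairing comes from these data, since no label states it. Array medians were 5.02 to 5.16, arrays correlated at 0.978 to 0.998, and 14274 to 17515 genes per array lay above the background line.

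The members and gene lists were chosen with earlier results of these data known. Named beside the members were, from each list, the 3 genes with the largest difference in a described contrast among those above the line, any call in a corticosteroid contrast, and the 6 genes most and 3 least correlated with Ly6c2, among named genes at or above the median level and above the line on 6 arrays or more. Ifit3, Oas2, Il2ra, Cd69, Pgap3 and Pign were named as calls after their values were seen. 1 gene that the rule would name is not reported here. Promoters were aligned with Biopython 1.88. Alternatives were the block, median centring, quantile scaling, a level filter, array weights, an intensity trend, mean rows, the series' value table, 16 added before log2, and leaving out each array, which for Ly6a2 was added after the data were seen.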

Additional observations from a re-analysis of the deposited data

How the results depend on the processing

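In the corticosteroid comparisons and the interaction 0 of the 8 members passed under each of the 9 alternatives with all arrays, the replicate block among them, and without any of the 12 arrays, with a lowest adjusted p of 0.409. In these contrasts the block changed no call on the members. The Ly6c2 difference between the peptides ran from 3.76 to 4.59 (log2) without and from 3.88 to 4.51 with corticosteroid as single arrays were left out, and with array weights it was 3.54 and 3.87. With the replicate block it stayed at 4.14 and 4.18, as the design is balanced. Of 36 differences of the 6 members above the background line on some array, 19 kept their sign in every setting. The others, each smaller than its standard error, changed sign when single arrays were left out. For the corticosteroid effect under N4 the range was -0.6006 to 0.2256 (Ly6c2), -0.0412 to 0.5735 (Ly6c1), -0.1303 to 0.3614 (Ly6i) and -0.0565 to 0.2165 (Ly6g). For the corticosteroid effect under Y3 the range was -0.5431 to 0.0881 (Ly6c2), -0.1684 to 0.5277 (Ly6c1), -0.0366 to 0.3782 (Ly6i) and -0.1609 to 0.0663 (Ly6g). For the interaction the range was -0.4045 to 0.4217 (Ly6c2), -0.4567 to 0.2393 (Ly6c1), -0.6429 to 0.2553 (Ly6a), -0.2051 to 0.2989 (Ly6i), -0.0891 to 0.1154 (Ly6e) and -0.2545 to 0.0308 (Ly6g). For the corticosteroid effect averaged over both peptides the range was -0.3897 to 0.0233 (Ly6c2) and -0.0411 to 0.0954 (Ly6g). For the Y3 minus N4 difference with corticosteroid the range was -0.0193 to 0.2378 (Ly6g). Without any array left out, sign changes came with median centring (interaction of Ly6i, -0.0055) and array weights (interaction of Ly6i, -0.0612, and Y3 minus N4 of Ly6g with corticosteroid, -0.0638). The cause was not tested. The number of all genes past the threshold, which the shares in the text rest on, was 12 for Y3 against N4 without corticosteroid and 101 with it. It was 1160 and 2576 with the replicate block, 78 and 1562 with array weights, and 22 and 83 with the level filter. Median centring gave 12 and 65, and the intensity trend 12 and 20. Of the 12 calls 6 were higher in Y3, and of the 11 with quantile scaling 4. As single arrays were left out the numbers ran from 0 to 26 and from 0 to 205. The steroid's name and dose, 3 arrays a group and a background line chosen with the data known limit all of these values.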
